A study of Mus musculus with 9 samples.

Results

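Suv420h1 was put back into fibroblasts that lack it, and 3 of the 9 arrays of the study bear on what followed. All 3 came from Suv420h1-/- mouse embryonic fibroblasts (MEFs), connective-tissue cells grown from E13.5 knockout embryos that had become immortal without an added oncogene. The first array, here called untransduced because its label names no construct, measured the line by itself, the second measured it with GFP, and the third with a fusion of Suv420h1 to GFP. The arrays were chosen by their titles alone, and no measured value entered the choice. The other 6 arrays came from a wild-type line with GFP, LacZ or PREX2 constructs, and their values are given only beside those of the null line. How the constructs entered the null cells, from which species the added Suv420h1 came and whether the line is a single clone are not stated in the labels. The question the arrays address is which transcripts differ when the missing enzyme is returned to the same line.

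Suv420h1, whose current gene symbol is Kmt5b, adds methyl groups to lysine 20 of histone H4. Kmt5a places the first methyl group there, and Kmt5b and its paralogue Kmt5c add the further ones. The higher methyl states are known for marking condensed chromatin, for recruiting the repair protein 53BP1 (gene Trp53bp1) and for regulating where replication begins.

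Each array gave a signal, a linear brightness that was scaled so that arrays are comparable, for 45101 probe sets, a probe set being a group of short DNA probes for 1 transcript. The median signal was 68.1 on the untransduced, 67.9 on the GFP and 68.9 on the Suv420h1-GFP array. Differences are given as log2(signal + 25), Suv420h1-GFP minus the mean of both null arrays, and the test was run where the mean signal over the 3 arrays reached 100 or more. That left 19599 probe sets and 10190 genes. The mean includes the Suv420h1-GFP array, so a gene dim on both null arrays was tested only where that array was bright. There is 1 array for each construct, and the labels name no separate cultures. Every p-value below rests on differences between the 2 null arrays, mostly pooled over probe sets of like brightness and less on the gene's own gap. The Suv420h1-GFP array was assumed to vary as the null arrays do. The small number of arrays limits how precise any value can be. With 1 Suv420h1-GFP array, a difference due to the construct cannot be told apart from one due to that culture or array. The gap between the null arrays likewise holds any effect of GFP along with other variation. In such samples of many cells, fewer cells of a kind and less RNA per cell cannot be told apart.

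Of 19 fibroblast markers on the arrays, 16 reached the minimum for testing. The intermediate filament gene Vim read 31840, 34270 and 34670 on the untransduced, GFP and Suv420h1-GFP arrays, and the collagen gene Col1a2 read 24510, 23870 and 25540. The surface marker Thy1 was near background, at 11.2, 27.3 and 6.9, and Lum (48.6, 75.0 and 53.5) and Tcf21 (52.3, 34.2 and 46.9) were also under the minimum. Of 12 macrophage and leukocyte markers 4 reached the minimum for testing, the brightest being the lysozyme gene Lyz2 (735, 950 and 547) and the others Cd14, Csf1r and Cd68, while the leukocyte gene Ptprc lay at 9.5 or below. The summed signal of those 4 was 1347, 1592 and 1143. Of 10 endothelial markers only Eng did, at 667, 536 and 656, while the endothelial gene Pecam1 lay at 5.81 or below. None of these 5 passed the test. Nor did the 2 of 10 epithelial markers that reached the minimum, Perp (2223, 1946 and 2831) and Epcam (255, 432 and 297.5). The part of these cell types in the results was not tested.

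Kmt5b itself was examined first, since it checks the labels, and its 5 probe sets did not read alike. Probe set 1451817_at read 8.85 on the untransduced array, 17.3 with GFP and 150.3 with Suv420h1-GFP, while the wild-type-line arrays read between 117.9 and 182.4. On this probe set the Suv420h1-GFP array was the only one of the 3 clearly above background, 2.21 higher than the null arrays on the log2 scale against a gap of 0.32 between them. Its mean of 58.8 was under the minimum for testing, so it has no p-value, and both null readings lie under the offset of 25, which sets the size of the difference. The brightest probe set, 1455171_at, read 536, 462 and 554 in the same order. That is a log2 difference of 0.15 (SE 0.184, adjusted p = 0.842 in limma), smaller than the gap between the null arrays. The third, 1434999_at, read 442, 432 and 328.0 (log2 -0.39, adjusted p = 0.452), the fourth, 1442764_at, read 101.5, 79.4 and 66.2, and the fifth, 1425740_at, read 52.5, 57.3 and 52.5. Which exons these probe sets read is not stated in the sources used here. A probe set outside the deleted exons cannot check the knockout, and one outside the added coding sequence cannot check the return of the gene.

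**Figure D1:**
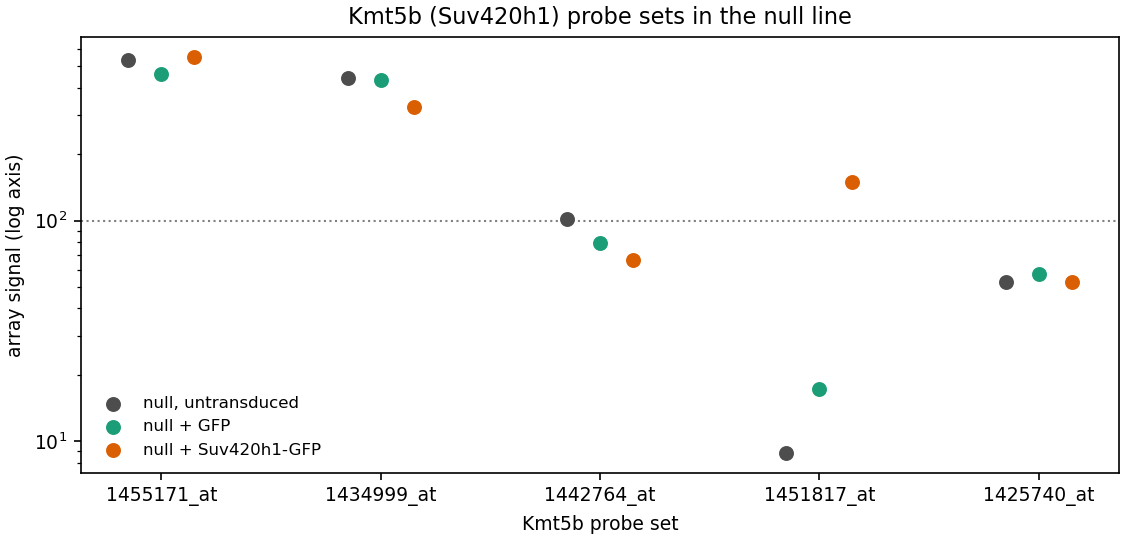
Signal of the 5 Kmt5b probe sets (log axis) on the untransduced, GFP and Suv420h1-GFP arrays of the null line, 1 point per array; the dotted line marks the signal of 100 used as the minimum mean for testing. Probe set 1451817_at reads 8.85 and 17.3 without Suv420h1-GFP and 150.3 with it, and the other 4 probe sets show no such step.

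Across the transcriptome, the Suv420h1-GFP array differed from the null arrays more often than they differed from each other. The GFP and untransduced null arrays were more than 2-fold apart at 65 probe sets (0.332%) and 0.285% of genes, the Suv420h1-GFP and untransduced arrays at 216 (1.1%), and the Suv420h1-GFP and GFP arrays at 275 (1.4%). The standard deviation of the log2 differences over probe sets was 0.257 between the null arrays, and 0.313 and 0.325 for Suv420h1-GFP against each of them. In limma with an intensity trend, at an adjusted p below 0.05 (Benjamini-Hochberg), 324 probe sets passed (1.65%), of which 141 rose (0.719%) and 183 fell (0.934%). With 1 probe set per gene, the brightest, 61 genes rose (0.599% of 10190) and 115 fell (1.13%). All 176 of these genes lay outside the range of the null arrays, with a median size of 0.91 on the log2 scale and a median gap between the null arrays of 0.23. Being outside that range is by itself common, since 39.1% of all genes lay above and 33.6% below both null arrays. A rule of size without a test asked for at least 2-fold from both null arrays and for more than the gap between them. It was met by 102 probe sets (0.52%), 44 upward (0.225%) and 58 downward (0.296%), and by 14 genes upward (0.137%) and 33 downward (0.324%), and 46 of these 47 also passed the test. The exception, named after its value was seen, was Kctd8 (131.9, 137.1 and 44.8, log2 -1.19, adjusted p = 0.0515).

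These calls depend on how the spread is estimated. The 3 arrays leave 1 residual degree of freedom, and an exact permutation of 1 array against 2 cannot give a two-sided p below 0.333, so the test borrows its spread from all probe sets of like brightness. At an unadjusted p below 0.05, 2268 probe sets passed. Without the intensity trend in limma no probe set passed (lowest adjusted p = 0.0959, 2152 at an unadjusted p below 0.05). The count was also 0 with all 9 arrays in the fit (lowest 0.151, 694 unadjusted) and with no minimum signal (lowest 0.515, 3595 unadjusted). With 1 null array left out and the wild-type-line arrays supplying the spread, limma called 0 without the untransduced array (lowest 0.482, 414 unadjusted) and 0 without the GFP array (lowest 1, 365 unadjusted). The words "rose" and "fell" below refer to the test on the 3 arrays, and the difference from each null array is given for the genes described so that it can be read without the test.

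**Figure D2:**
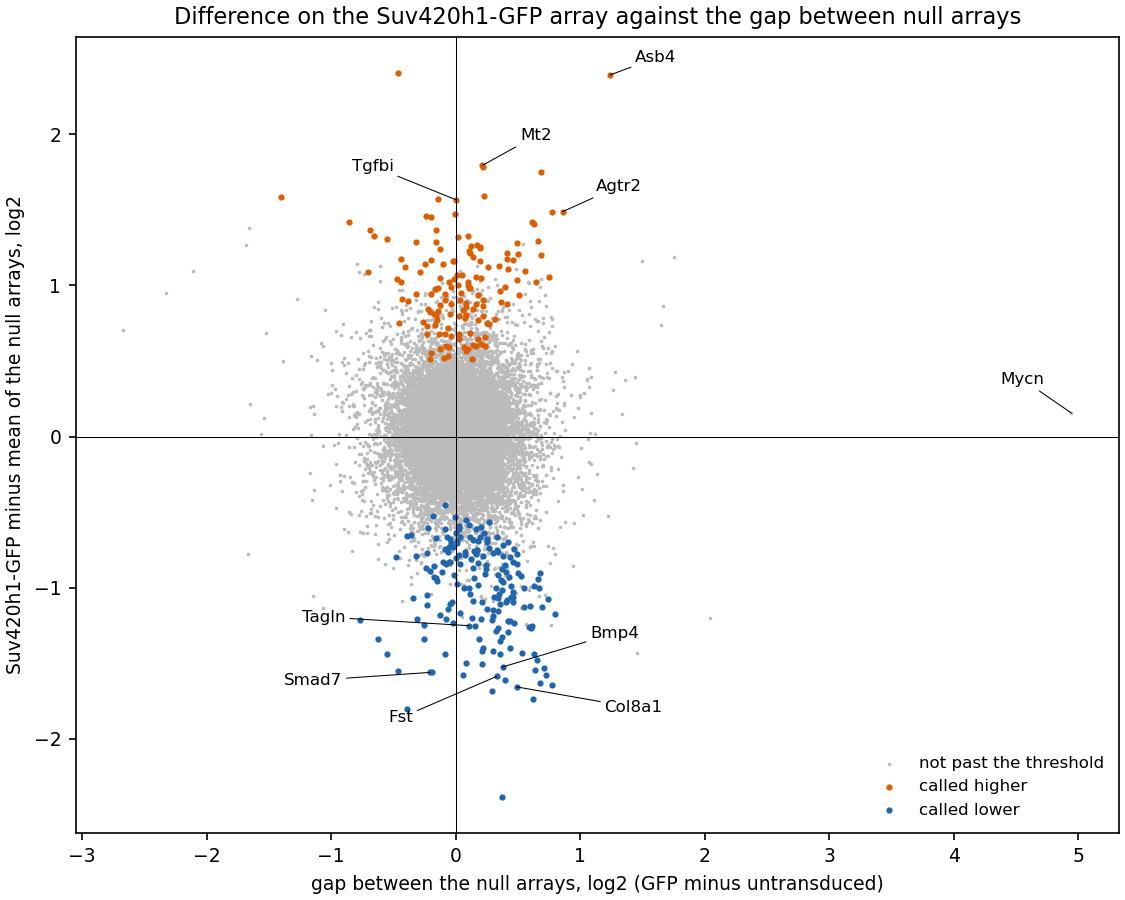
Each point is 1 of 19599 tested probe sets, with the log2 gap between the null arrays (GFP minus untransduced) across and the log2 difference of Suv420h1-GFP from their mean upward; orange and blue points passed the test as higher and lower. Asb4 is the 1 called gene whose null arrays differ by more than 2-fold, with a gap of 1.24, Tgfbi is called at a gap of 0.00, and a Mycn probe set with a gap of 4.94 lies near 0 on the vertical axis.

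The ligand genes Bmp4 and Wnt5a and the inhibitor genes Fst and Smad7, of the TGF-beta, BMP and Wnt pathways that direct growth and differentiation of connective tissue, fell on the Suv420h1-GFP array. Of 35 tested members of a list of Wnt, BMP and TGF-beta genes, 5 fell and 1 rose, 19 lay below both null arrays and 11 above. Their median log2 difference was -0.19, against 0.02 over all genes, of which 1.73% passed in either direction, 0.599% upward and 1.13% downward. The list, like the others below, was drawn up with results of these data known, so its count describes these members and is no independent evidence.

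Among ligands, Bmp4, which instructs bone, limb and gut development, read 1151 on the untransduced array, 1502 with GFP and 441 with Suv420h1-GFP. It fell 2.88-fold (log2 -1.52, SE 0.178, adjusted p = 0.000224), by 1.34 against the untransduced and by 1.71 against the GFP array. Wnt5a, a ligand of the non-canonical Wnt pathway, read 2623, 2499 and 1610 and fell by 0.66 (adjusted p = 0.019). Both ligands were at their lowest with Suv420h1-GFP, and the null readings of each lay closer to one another than to the Suv420h1-GFP reading. The other 2 probe sets of Wnt5a were lower by 0.64 and 0.54 but did not pass (adjusted p = 0.0854 and 0.304). Other ligands on the list did not pass, Bmp6 at -0.70 (adjusted p = 0.073) and Tgfb3 at -0.60 (adjusted p = 0.142) among them.

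Among inhibitors on the list, Fst and Smad7 fell and others did not pass. Fst encodes follistatin, a secreted protein that binds and neutralises activin. It read 3909, 4912 and 1443 on the untransduced, GFP and Suv420h1-GFP arrays, and so fell (log2 -1.59, SE 0.148, adjusted p = 3.94e-05), and its second probe set fell by 1.68. Smad7, an intracellular brake on TGF-beta receptors, read 2024, 1750 and 622 (log2 -1.56, SE 0.156, adjusted p = 4.57e-05). For both genes the Suv420h1-GFP reading lay under both null readings, by 1.42 or more. The Smad7 reading comes from a probe set of the _x_ kind, whose probes can also bind related sequences, and the other Smad7 probe set, at 1029, 1048 and 827, did not pass (log2 -0.32, adjusted p = 0.458). Bambi, a decoy receptor of the same pathway, read 224, 175.7 and 94.5 (log2 -0.90, adjusted p = 0.109) and did not pass. Nor did Grem1, a secreted BMP antagonist held in the list of secreted factors, at 10300, 4907 and 10790 (log2 0.60, adjusted p = 0.359), whose null arrays were far apart.

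The member of the list that rose was Tgfbi. Tgfbi, a secreted matrix protein named for its induction by TGF-beta, read 629.7 and 630.5 on the null arrays and 1916 with Suv420h1-GFP. It rose 2.96-fold (log2 1.57, SE 0.159, adjusted p = 5.13e-05), and all 4 of its tested probe sets rose, by 1.27 to 1.59. Ccn5, a secreted protein of the CCN family, read 403, 546.5 and 187.1 and fell by 1.22 (adjusted p = 0.00611). The Id genes, standard targets of BMP signalling, did not pass, Id2 being the lowest at -0.45 (3243, 3648 and 2507, adjusted p = 0.129).

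**Figure D3:**
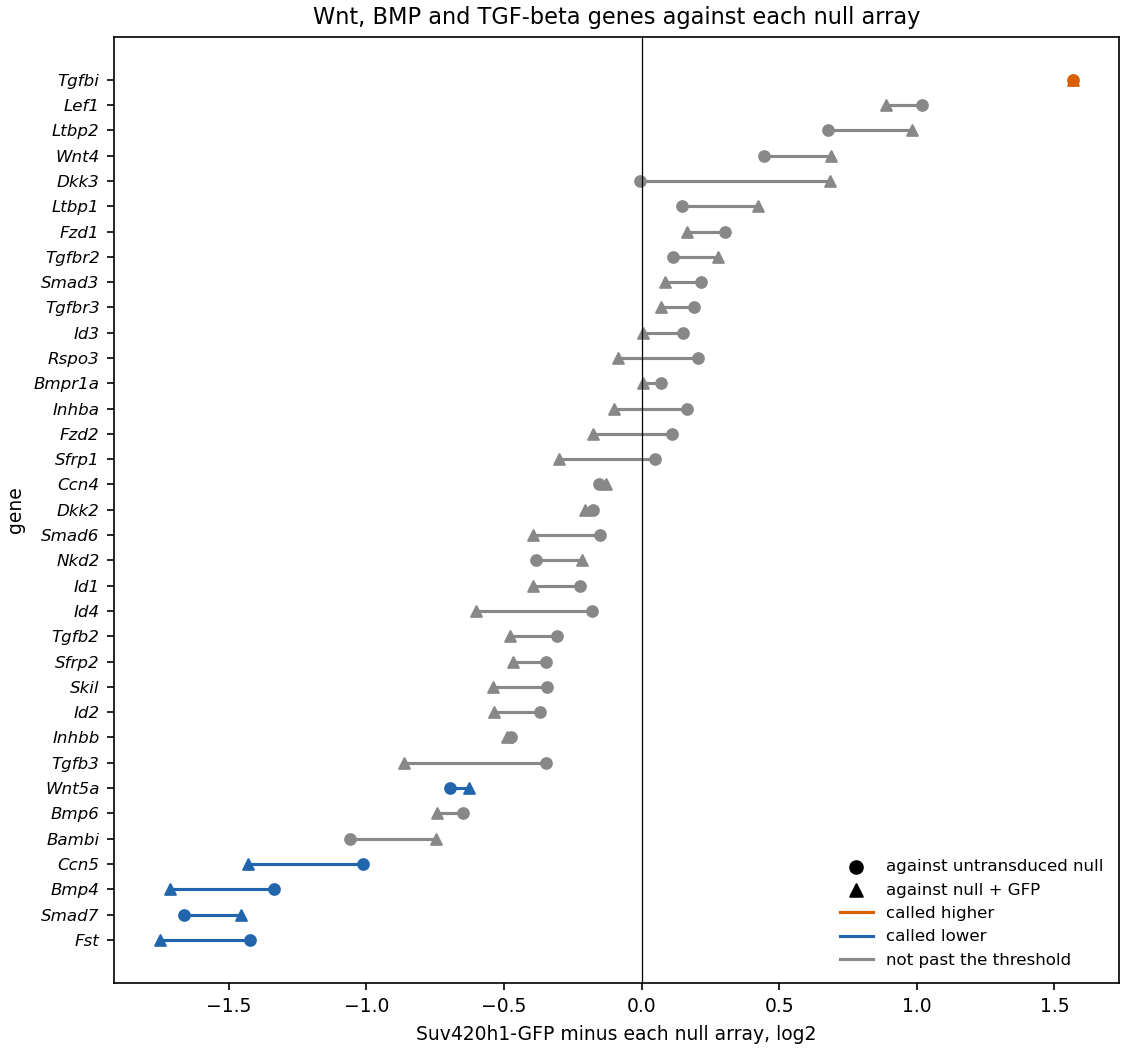
Log2 difference of the Suv420h1-GFP array from the untransduced null array (circles) and from the GFP null array (triangles) for the 35 tested Wnt, BMP and TGF-beta genes; colour marks genes that passed the test. Fst, Smad7, Bmp4 and Ccn5 lie more than 1 below both null arrays, Tgfbi lies 1.57 above both, and most other members lie between -1 and 1.

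Of 41 tested genes for collagens and the matrix that fibroblasts secrete, 7 fell and 1 rose (19.5% in either direction), with a median of -0.14, and 23 lay below both null arrays. Over all genes 1.73% passed, falls also outnumbered rises (115 against 61), and 33.6% lay below both null arrays. Col8a1, a short-chain collagen of vessel walls and the eye, read 5944, 8364 and 2221 on the untransduced, GFP and Suv420h1-GFP arrays. It fell 3.15-fold (log2 -1.66, SE 0.161, adjusted p = 4.26e-05). Its second probe set fell by 1.63 and the third, with a mean signal of 127.9, was lower by 1.25 and did not pass (adjusted p = 0.0658).

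The proteoglycan decorin, encoded by Dcn, binds collagen fibrils and read 9579, 7556 and 4050, falling by 1.07 (adjusted p = 0.000444). Mfap5, a microfibril protein, read 1010, 1286 and 499.5 and fell by 1.15 (adjusted p = 0.00203). Col1a1, the main chain of type I collagen, read 7940, 10040 and 5254 and fell by 0.76 (adjusted p = 0.00672), although its second probe set read 3005, 3625 and 2788 and did not pass (adjusted p = 0.556). In each of these the Suv420h1-GFP reading was the lowest of the 3. Col11a1 (-0.94), Col7a1 (-0.88) and the proteoglycan gene Aspn (-0.79) also fell. The fibrillar collagen genes Col1a2 and Col3a1 did not pass, at 0.08 and -0.12.

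The member that rose was Fmod, or fibromodulin, a proteoglycan that also binds collagen fibrils. It read 1041, 1656 and 3254 (log2 1.29, SE 0.199, adjusted p = 0.00213), 1.62 above the untransduced and 0.96 above the GFP array. Its null arrays were themselves apart by more than those of most called genes. Of its 6 tested probe sets 5 rose and the sixth was higher by 0.86 and did not pass (adjusted p = 0.0824).

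Of 19 matrix proteases and protease inhibitors 3 fell and none rose (15.8%, against 1.73% of all genes). Adamts9, a secreted metalloprotease, read 307, 476 and 145.1 and fell by 1.26 (adjusted p = 0.0118). Ctsk, the collagen-degrading cathepsin K, read 905, 1204 and 549 and fell by 0.90 (adjusted p = 0.0161). Timp3, an inhibitor of metalloproteases held in the matrix, read 20140, 23150 and 14230 and fell by 0.60 (adjusted p = 0.00879), and its other 3 probe sets fell by 0.77 to 1.33. The gelatinase gene Mmp9 read 135.0, 91.5 and 242 (log2 0.97, adjusted p = 0.103) and did not pass.

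Among 26 contractile genes and targets of SRF and YAP, Tagln alone passed (3.85%, against 1.73% of all genes). Tagln, which encodes the actin-binding protein transgelin of smooth muscle, read 6621 and 7124 on the null arrays and 2872 with Suv420h1-GFP. It fell 2.38-fold (log2 -1.25, SE 0.123, adjusted p = 4.26e-05), while its null arrays differed by 0.11. The smooth-muscle actin gene Acta2 read 29220, 30000 and 29850 (log2 0.01, adjusted p = 0.984), and the median of the list was 0.01.

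Both metallothionein genes tested rose. They were the 2 calls among 6 tested metallothionein and zinc-response genes (33.3%, against 1.73% of all genes passing in either direction). These small cysteine-rich proteins bind zinc and copper, and their genes are switched on by zinc through the factor Mtf1. Mt2 read 616 on the untransduced array, 718 with GFP and 2368 with Suv420h1-GFP, a 3.47-fold rise (log2 1.79, SE 0.163, adjusted p = 3.33e-05). Mt1 read 1679, 2368 and 4878, a 2.43-fold rise (log2 1.28, SE 0.169, adjusted p = 0.000552). The Suv420h1-GFP reading of either gene was well above both null readings, though the Mt1 null arrays were apart by 0.49. A further metallothionein gene, Mt3, was too dim to test, at 30.7, 33.9 and 55.9. The other 4 members of the list did not pass. Slc30a1, a zinc exporter that is also switched on through Mtf1, read 210.0, 265.9 and 161.1 (log2 -0.49, adjusted p = 0.448), lower than on either null array, and Mtf1 itself read 202, 213 and 252.5 (log2 0.25, adjusted p = 0.742).

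The promoters of both genes are shown because the pair moved together. They are the 250 bases before each start in a RefSeq promoter table of build GRCm38.p6, on the plus strand, Mt1 at chr8:94178839-94179088 and Mt2 at chr8:94172368-94172617. Capitals mark matches, on either strand, to TGCACNC or TGCGCNC, the core of the metal response element that Mtf1 is known to bind.
Mt1: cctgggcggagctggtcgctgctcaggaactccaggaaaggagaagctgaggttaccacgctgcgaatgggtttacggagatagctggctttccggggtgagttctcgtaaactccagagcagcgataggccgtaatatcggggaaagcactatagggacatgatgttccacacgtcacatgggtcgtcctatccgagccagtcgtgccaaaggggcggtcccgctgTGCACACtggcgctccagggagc
Mt2: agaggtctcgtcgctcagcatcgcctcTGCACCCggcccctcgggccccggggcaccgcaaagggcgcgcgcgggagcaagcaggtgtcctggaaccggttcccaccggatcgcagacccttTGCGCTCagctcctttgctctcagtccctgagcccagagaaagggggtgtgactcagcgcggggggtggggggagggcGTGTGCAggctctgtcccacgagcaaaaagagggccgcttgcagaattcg
Within these windows Mt1 held 1 match and Mt2 held 3, of which 2 were forward and 1 reverse. Bases past the annotated start or farther upstream were not searched, so the counts are not those of the whole promoter. Of 32851 promoter windows of the same length, 21.4% held at least 1 match and 1.26% at least 3. Slc30a1 held 1 match. A match is a run of letters and was not tested as a binding site.

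The largest rise of a named gene was in Asb4, an imprinted gene whose product is a substrate adaptor of a ubiquitin ligase. It read 153.8 on the untransduced array, 397 with GFP and 1418 with Suv420h1-GFP (log2 2.39, SE 0.322, adjusted p = 0.000641). The null arrays were apart by 1.24, so its rise was 3.01 against the untransduced and 1.77 against the GFP array. A second probe set, at 178.3, 301 and 842, rose by 1.75. Mest, another imprinted gene, read 617, 880.4 and 1738 and rose by 1.21 (adjusted p = 0.00233). Of 24 imprinted genes tested, 2 rose and Dcn fell (12.5%, against 1.73% of all genes), with a median of -0.03. Others with high signals did not pass, Peg3 at -0.20 and Dlk1 at -0.07.

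Rises were also called in genes of cell-surface receptors and channels. Agtr2, a receptor for angiotensin II, read 380.3, 710.3 and 1507 and rose by 1.49 (SE 0.247, adjusted p = 0.0036). Ret, the receptor tyrosine kinase of the GDNF family, read 74.3, 144.5 and 338.5 and rose by 1.49 (SE 0.299, adjusted p = 0.0153). In both the GFP array lay between the others, and Suv420h1-GFP was 1.06 or more above it. Scn3a, a voltage-gated sodium channel gene, read 194.8, 171.9 and 483 and rose by 1.29 (adjusted p = 0.00403).

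Depdc7, Rrp9 and Chst1 were at least 2-fold above both null arrays, and the null readings of each lay closer together than those of Agtr2 or Ret. Depdc7 read 317, 265.0 and 840.5 and rose by 1.46 (adjusted p = 0.00059). Rrp9, which acts in ribosomal RNA processing, read 81.7, 70.4 and 235 and rose by 1.37 (adjusted p = 0.0168). With a null mean of 76.1 it reached the minimum for testing only through its Suv420h1-GFP reading. Chst1, a sulfotransferase of keratan sulfate, read 274, 249 and 651 and rose by 1.24 (adjusted p = 0.0025). Crabp1, a carrier of retinoic acid inside the cell, read 271.6, 139.0 and 565 and rose by 1.42 (adjusted p = 0.0125), but was 0.99 above the untransduced array and so just missed the 2-fold rule, with null readings about as far apart as those of Agtr2. Hook2, which links cargo to microtubules, read 88.0, 46.6 and 200.4 and rose by 1.33 (adjusted p = 0.0494). Its null mean of 67.3 was likewise under the minimum for testing. At 0.996 above the untransduced array it missed the rule as well, and its call ended with an offset of 5 (adjusted p = 0.0617) and after quantile normalization (adjusted p = 0.0908).

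The other largest falls were in genes outside these lists. Dner, a transmembrane ligand of Notch in neurons, read 1219, 1607 and 441 and fell by 1.61 (SE 0.179, adjusted p = 0.000123), with a second probe set falling by 1.74. Hey2, a transcriptional repressor switched on by Notch, read 244, 414 and 93.9 and fell by 1.53 (SE 0.271, adjusted p = 0.00619). Fzd5, a Wnt receptor, read 687, 1077 and 302 and fell by 1.44 (SE 0.219, adjusted p = 0.00185). All 3 were lowest with Suv420h1-GFP and highest with GFP. Aldh1a1, which makes retinoic acid, read 701, 1217 and 279.7 and fell by 1.64 (adjusted p = 0.00124). Hsd11b1, the enzyme that regenerates active glucocorticoid, read 233.7, 172.7 and 40.0 and fell by 1.80 (adjusted p = 0.00234), the largest fall among genes at their brightest probe set. The carbohydrate kinase gene Fggy read 151.1, 158.0 and 35.2 (log2 -1.58) and the mitochondrial carrier gene Slc25a45 read 157.3, 134.8 and 32.9 (log2 -1.56).

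Popdc3 and Bves, both of the Popeye family of membrane proteins that bind cyclic AMP, fell by 1.44 and 1.55. Popdc3 read 339.8, 223.5 and 86.4 (adjusted p = 0.00808), and Bves read 268, 187.8 and 60.1 (adjusted p = 0.00593). In contrast to Dner and Fzd5, the untransduced array was the highest for both. Klhl29 (281.5, 457 and 112.8), Frmd3 (405, 381 and 129.4) and Ptprz1, a receptor phosphatase (648, 950.0 and 276), fell by 1.48, 1.44 and 1.43.

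**Figure D4:**
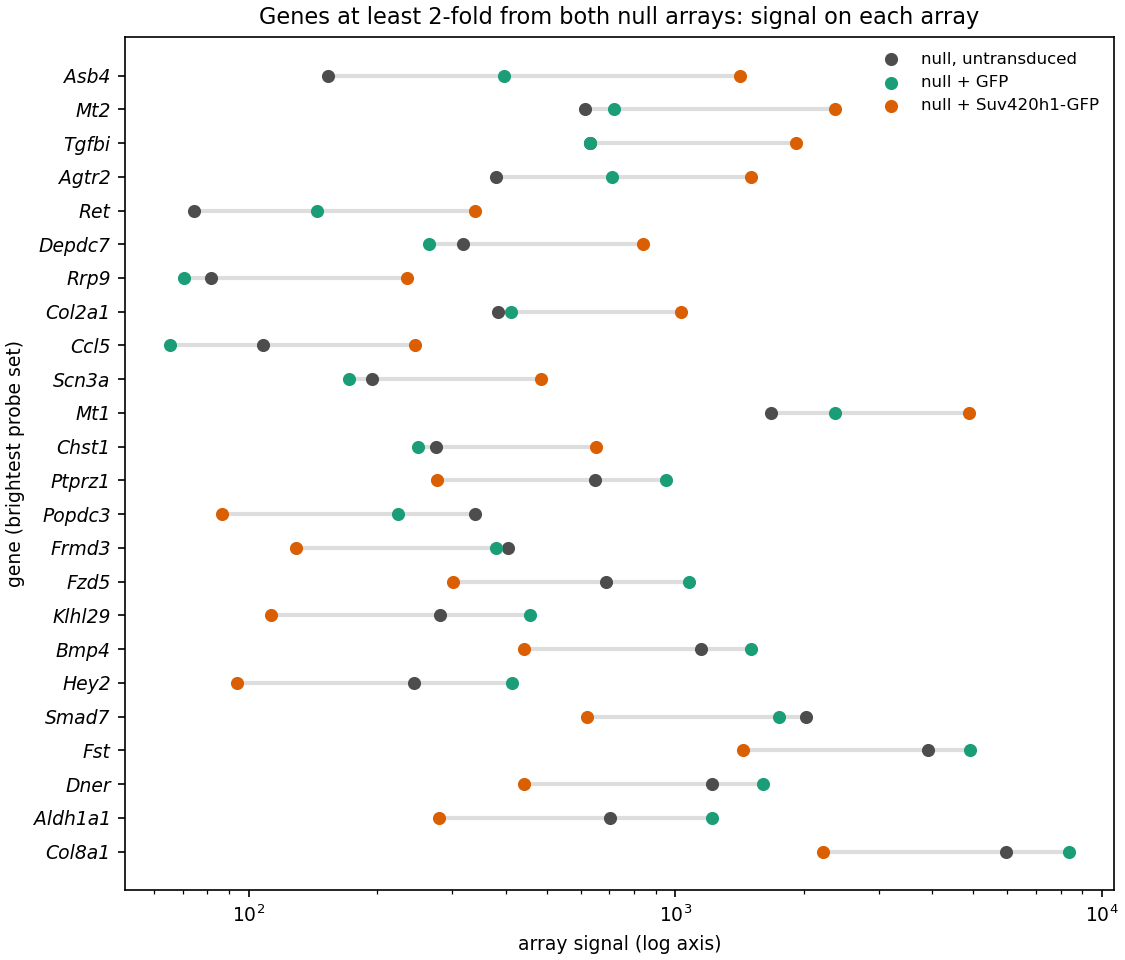
Array signal (log axis) of the 12 highest and 12 lowest genes among those at least 2-fold from both null arrays, at the brightest probe set, on the untransduced (grey), GFP (green) and Suv420h1-GFP (orange) arrays, joined by a line. The orange point lies outside both null points for every gene drawn, which the rule requires, and the null points are nearly on top of each other for Tgfbi and widest apart for Asb4.

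Genes of other cell types were read beside these results. Col2a1, the collagen of cartilage, read 384, 412 and 1034 and rose by 1.33 (SE 0.177, adjusted p = 0.000594). The cartilage regulator Sox9 read 499.7, 437 and 411 (log2 -0.18, adjusted p = 0.804), and the cartilage proteoglycan Acan was below the minimum at 51.9, 27.7 and 36.9. The summed signal of the 2 tested members of 9 cartilage and bone markers was 884, 849 and 1445, with Col2a1 higher and Sox9 lower on the Suv420h1-GFP array.

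Of 5 tested adipocyte markers 2 rose (40%, against 1.73% of all genes passing either way). Pparg, the regulator of fat-cell differentiation, read 286, 327 and 608.5 and rose by 0.94 (adjusted p = 0.0183). Fabp4, a fatty-acid carrier, read 94.8, 105.0 and 264 and rose by 1.21 (adjusted p = 0.0234), while its second probe set read 119, 83.9 and 199.3 and did not pass (adjusted p = 0.192). The Fabp4 probe set that rose had a null mean of 99.9, so it reached the minimum for testing only through its Suv420h1-GFP reading. The defining markers Adipoq, Lep and Cidec were at 22.0 or below on every array, and the summed signal of the 5 was 13248, 16826 and 15520. The neuronal gene Map2 read 166.9, 231.6 and 65.5 and fell by 1.29 (adjusted p = 0.0217). It was the 1 call among 4 tested neural markers, of 14 on the arrays. The summed signal of those 4 was 2228, 2025 and 1692, and Vip, at 204, 47.2 and 50.2, was among them. The part of any of these cell types in the results was not tested.

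Of 16 tested fibroblast markers 4 fell and none rose, or 25% against 1.73% of all genes passing in either direction and 1.13% falling. Besides Dcn and Col1a1 these were Pdpn, a membrane glycoprotein (2936, 3700 and 2075, log2 -0.66, adjusted p = 0.0318), and the surface protein gene Cd34 (5526, 4210 and 3045, log2 -0.66, adjusted p = 0.0327). Pdgfra, a growth-factor receptor of the same cells, read 1952, 2070 and 2759 (log2 0.45, adjusted p = 0.14). The summed signal of the list was 166887, 176299 and 163609, and its median difference -0.05. With quantile normalization or a minimum mean of 200, 2 of these markers fell.

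Of 47 interferon-stimulated genes 2 rose (4.26%, against 1.73% of all genes passing in either direction), both chemokines. Of the list 30 lay above both null arrays, where 39.1% of all genes lay, and the median was 0.22. Ccl5, which attracts leukocytes, read 107.9, 65.5 and 246 and rose by 1.30 (adjusted p = 0.0318), and Cxcl10 read 861, 839 and 1366 and rose by 0.67 (adjusted p = 0.0397). The null mean of Ccl5 was 86.7, so it reached the minimum for testing only through its Suv420h1-GFP reading. The list had 0 calls after quantile normalization, where Ccl5 was at 1.26 (adjusted p = 0.061), and 0 with a minimum mean of 200, under which Ccl5 was not tested. At an unadjusted p below 0.05 in limma, 12 of the list were higher and 1 lower, where 5.32% of all genes were higher and 6.39% lower. Among members that did not pass, Ifit1 was higher (2456, 3542 and 4201, log2 0.51) and the antiviral enzyme gene Oas1a was not (2076, 1879 and 1930.0, log2 -0.03). Of 28 inflammatory and secreted factors 1 rose and 1 fell (7.14%). The chemokine gene Ccl7 read 8078, 7031 and 11070 and rose by 0.55 (adjusted p = 0.0268). Igf1, the insulin-like growth factor, read 1535, 1806 and 876 and fell by 0.91 (adjusted p = 0.00509), and its other 3 probe sets also fell.

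In the list of 36 unfolded-protein and amino-acid-response genes 3 fell and none rose (8.33%, against 1.73% of all genes), 22 lay below both null arrays, where 33.6% of all genes lay, and the median was -0.17. The lipoprotein receptor gene Vldlr read 3205, 5142 and 2165 and fell by 0.90 (adjusted p = 0.0238), a call that ended after quantile normalization (adjusted p = 0.0512). With a minimum mean of 200 the list had 0 calls. The chaperone genes Sdf2l1 (1233, 1261 and 779, log2 -0.66) and Dnajb9 (2385, 2566 and 1639, log2 -0.59) fell, with adjusted p of 0.0392 and 0.0415. Single members passed in further lists. The haem oxygenase gene Hmox1, among 30 NRF2 and glutathione genes, read 2120, 2026 and 3421 and rose by 0.72 (adjusted p = 0.0104). Hand2, a limb and heart transcription factor, read 453, 327 and 808 and rose by 1.02 (adjusted p = 0.0141) among 30 HOX and positional genes. Klf2 read 2290, 3227 and 1576 and fell by 0.78 (adjusted p = 0.0284) among 36 immediate-early and ERK-output genes.

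**Figure D5:**
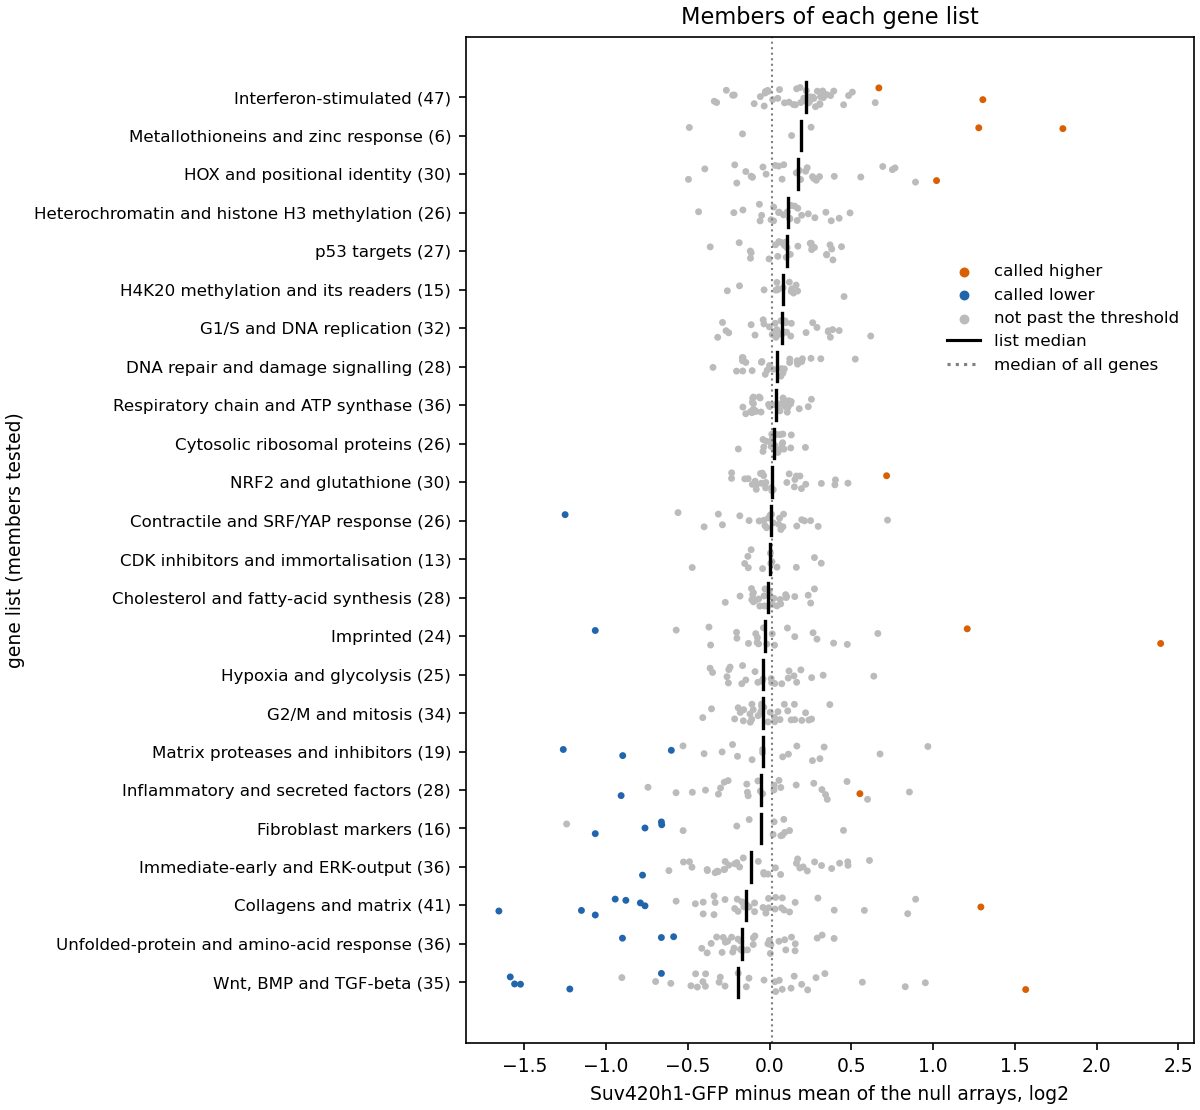
Log2 difference of Suv420h1-GFP from the mean of the null arrays for the tested members of the larger gene lists, 1 point per gene at its brightest probe set, with the list median (bar) and the median of all genes (dotted line). Falls that passed number 7 in the matrix list, 5 in the Wnt, BMP and TGF-beta list and 4 among fibroblast markers, and the medians run from -0.19 to 0.22.

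Genes that write, remove or read methylation of histone H4 at lysine 20 did not pass at their brightest probe sets. Kmt5b counts among them by probe set 1455171_at, while its probe set 1451817_at, higher by 2.21, was too dim to test. Of 15 tested, 0 were called in limma and 1 had an unadjusted p below 0.05, the demethylase gene Phf2 (569, 766 and 915.5, log2 0.46, adjusted p = 0.339). Kmt5c read 266, 229 and 214.5 (log2 -0.18, adjusted p = 0.836), Kmt5a read 2041, 1630 and 1892 (log2 0.05, adjusted p = 0.947), and Trp53bp1 read 2551, 2419 and 2726 (log2 0.13, adjusted p = 0.787). The replication-origin gene Orc1 read 175.1, 150.1 and 167.3. The median of the list was 0.08.

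A list of inhibitors of cyclin-dependent kinases and genes tied to immortalisation also gave 0 calls in limma among 13 tested, with 1 at an unadjusted p below 0.05. Of the 13, 6 were inhibitors of those kinases, 3 were of the retinoblastoma family, and the others were Mdm2, Bmi1, Cbx8 and Tert. Cdkn2a, which encodes the INK4A and ARF inhibitors, read 3363, 4308 and 3846 (log2 0.01, adjusted p = 0.987), the Suv420h1-GFP array lying between the null arrays. Cdkn2b, its neighbour, read 1565, 1741 and 1182 (log2 -0.47, SE 0.15, adjusted p = 0.158), below both null arrays. Cdkn1a, a target of p53, read 5019, 5131 and 4692 (log2 -0.11, adjusted p = 0.808), and Cdkn1c was near background at 8.44 or below.

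The remaining lists with 0 calls in limma covered growth and housekeeping. Over all genes 11.7% had an unadjusted p below 0.05, 5.32% higher and 6.39% lower. At that threshold there were 6 higher and 0 lower of 32 G1/S genes, with the DNA ligase gene Lig1 highest at 0.62 (1124, 1010 and 1650, adjusted p = 0.0544). There were 3 of 34 G2/M genes, 4 of 27 p53 targets, 1 of 28 DNA repair genes, 3 of 26 heterochromatin genes and 5 of 25 hypoxia and glycolysis genes. Respiratory chain (36 tested), cholesterol synthesis (28) and ribosomal proteins (26) had 0, 0 and 1. Among markers of other cell types with 0 calls there were 1 of 4 macrophage and leukocyte, 0 of 1 endothelial, 1 of 2 epithelial, 2 of 5 skeletal-muscle and 1 of 2 germ-line genes. In all, 669 listed genes were tested, of which 14 rose and 24 fell, and 16 of 32 lists had 0 calls. When the probe sets of a gene were averaged, Lig1 passed in limma (adjusted p = 0.0367), as did Egr3, Bnip3 and Msx2, each higher with Suv420h1-GFP. The fibroblast marker Fap was lower, at 118.7, 187.3 and 48.9 (log2 -1.24), and had not passed (adjusted p = 0.054 in limma). Fap did pass with averaged probe sets (adjusted p = 0.0472) and with an offset of 5 (adjusted p = 0.0466).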

How the data were processed

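RNA from the cells was labelled by 3' in vitro transcription for Affymetrix arrays, per the labels' protocols. The authors deposited intensity values, linear MAS5 signals per the submitters' processing notes, with the MAS5 version and scaling target not given in the sources used here. The mean after trimming 2% at each end was 500 on all 3 arrays. Control probe sets (64 of 45101) were removed. The platform annotation gave 1 gene symbol to 34945 of the remaining 45037, several to 932 and none to 9160, and only the 34945 were named. By gene identifier 34741 matched a RefSeq table of GRCm38.p6, with 0 symbols changed.

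Signals were tested as log2(signal + 25), which understates changes of dim probe sets, with limma 3.58.1 in R 4.3.3 (lmFit, eBayes with trend) on the 3 null-line arrays, Benjamini-Hochberg adjusted over 19599 probe sets with a mean of at least 100. P-values are two-sided. The procedure was tried on simulated data in which all 3 arrays shared a spread that depended only on brightness. Because that spread was built in, the trial cannot test whether it holds for these arrays. Named were the 12 highest and 12 lowest genes of the 2-fold rule with a brighter side of at least 200, up to 10 called genes each way, up to 4 rule members or else the 2 largest differences per list, and H4K20 and cell-cycle genes fixed by name; other list members that passed were added. The members and lists were chosen with earlier results of these data known. Trp53 and L3mbtl1 were not analysed here. Alternatives were other offsets, minimum signals, folds and normalization, no trend, all 9 arrays, averaged probe sets and each null array left out.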

Additional observations from a re-analysis of the deposited data

How the results depend on the processing

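The counts of genes and probe sets that passed depend on the test's settings, as does their number among listed genes. With all 9 arrays in the fit, with no minimum signal or without the intensity trend, the counts of probe sets higher and lower, of genes higher and lower and of listed genes called were each 0, against 141, 183, 61, 115 and 38. With a null array left out and the wild-type-line arrays in the fit they ranged from 0 to 0. A minimum mean of 200 left 87 probe sets and 39 genes higher. Of the 176 called genes, 174 were also called with an offset of 5 and 174 with 100, 147 after quantile normalization, 151 with probe sets averaged and 122 at a minimum of 200, which tests fewer genes. The 41 named genes that passed kept their direction under each alternative that tested them. Only quantile normalization and averaged probe sets could have changed a direction, because every called gene lay outside both null arrays. Under the other alternatives the kept direction was fixed beforehand and is no evidence of stability. Other calls that ended were Vldlr with probe sets averaged (adjusted p = 0.0887) and, at a minimum of 200, Klf2 (adjusted p = 0.0577), Sdf2l1 (adjusted p = 0.0527) and Vldlr (adjusted p = 0.0577).

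The 2-fold rule was met by 44 probe sets upward and 58 downward. These became 303 and 281 at 1.5-fold, 4 and 2 at 3-fold, 196 and 252 with no minimum signal, and 20 and 24 with an offset of 100. Upward the count was 29 at a minimum of 200 and 72 with an offset of 5. With 1 null array left out it ranged from 121 to 129 upward and from 87 to 154 downward. The null arrays were more than 2-fold apart at 65 probe sets, at 26 with a minimum of 200, 1268 with none, 14 with an offset of 100 and 104 with an offset of 5. Probe set 1451817_at of Kmt5b was higher by 1.15 with an offset of 100 and by 3.14 with 5. No paired analysis was possible because there was 1 Suv420h1-GFP array against 2 null arrays. The labels also give these arrays no replicate numbers. Dim probe sets limit the rest: differences under a signal of about 25 are set by the offset.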

Other observations

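The null arrays were themselves far apart for a few genes, which the reconstituted array then could not be set against. A probe set of Mycn, a transcription factor of the MYC family, read 145.9 on the untransduced array, 5232 with GFP and 1031 with Suv420h1-GFP, and between 85.7 and 139.5 in the wild-type line. The other Mycn probe set read 537, 423 and 278.1 and so did not share the pattern. Tcl1b3 (574, 2446 and 505) and the ferritin receptor gene Scara5 (160.3, 482 and 88.9) were also highest with GFP, with Suv420h1-GFP below both. Zap70, a T-cell kinase gene, read 332.8, 57.7 and 342.9, and the neuropeptide gene Vip read 204, 47.2 and 50.2. In Vip the Suv420h1-GFP array lay beside the GFP array, and in Zap70 beside the untransduced one.

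Set beside the wild-type line, whose arrays share no construct with Suv420h1-GFP and differ by line, the Suv420h1-GFP readings had no single placement. Tgfbi, at 1916, stayed under the wild-type range of 3242 to 12900, and Asb4, at 1418, lay far above that of 6.69 to 33.0. Col8a1, at 2221, was just under the wild-type range of 2376 to 2879, and Smad7, at 622, just over that of 201 to 541. Bmp4, at 441, lay under its range of 1043 to 2415 and Mt2, at 2368, over that of 556 to 1456. Tagln, at 2872, was farther from its range of 11830 to 14300 than the null arrays were. These values are a description with no test.

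Of the probe sets that passed, 43 had no single gene symbol, 31 of them higher and 12 lower. The largest was 1427760_s_at, annotated to several genes, at 459.6, 327 and 2162 (log2 2.41, adjusted p = 1.86e-05), with 4713 to 27160 in the wild-type line. Over all tested probe sets 1.65% passed, 141 higher and 183 lower. The share among tested probe sets without a single symbol was not counted. Some of the higher ones, such as 1447240_at with a null mean of 80.5, reached the minimum for testing only through their Suv420h1-GFP reading. A dim probe set of Gsn, the actin-severing protein gelsolin, had the largest fall of all (172.9, 231 and 18.2, log2 -2.38), while the other 4 Gsn probe sets, with signals of 10070 or more, did not pass (log2 0.04 to 0.23). In Xist, the long non-coding RNA that silences an X chromosome, 1 probe set rose by 0.75 (2485, 2994 and 4591, adjusted p = 0.0104) and the other 2 did not pass (log2 0.20 and 0.14).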
